A study of Homo sapiens with 4 samples.

Results

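The miR-10, miR-99/100 and miR-125 families were followed in extracellular vesicles (EVs) of MDA-MB-231, a line of human triple-negative breast cancer cells. Their 7 members were taken by name and not by a threshold on measured values, although earlier results of these data were known when they were chosen. These were hsa-miR-10a-5p and hsa-miR-10b-5p, hsa-miR-99a-5p, hsa-miR-99b-5p and hsa-miR-100-5p, and hsa-miR-125a-5p and hsa-miR-125b-5p. They were 7 of the 539 miRNAs listed for both replicates, and each had at least 2 reads in each of the 4 libraries. Cells were wild type and were grown with 10% fetal bovine serum. For 12 h before collection, the 231 EV group was given EV-free DMEM and the 231 -G EV group was given medium lacking glucose. EVs were pelleted at 110000 × g for 70 min, and no label names separate cultures. The p-values of models across replicates therefore measure the spread between these samples, which may be technical.

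Each group had 2 libraries. Replicate 1 of both groups came from RNA whose modifications had been removed before adapters were ligated, with inserts of 14 to 40 nt, whereas replicate 2 of both groups was made with an NEBNext small RNA kit. The libraries of one replicate number thus formed a pair, called pair 1 and pair 2 here, and a pair held 1 library of each medium. The preparation and any other difference between the pairs cannot be told apart.

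A mature miRNA directs its target transcripts to repression mainly through its seed, the short stretch near its 5′ end, so miRNAs with the same seed are counted as a family. The miR-10 genes lie within the HOX clusters, and miR-10b is known for promoting invasion and metastasis of breast cancer cells. The miR-99/100 family represses mTOR, and miR-100 is a recurrent cargo of tumour cell EVs. The miR-125 family is the vertebrate counterpart of lin-4, the first miRNA described, and its genes lie in clusters that also hold a let-7 gene and a miR-99/100 gene.

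RefSeq (GRCh38.p14) gave a mature sequence for 6 of the 7 members. They are shown 5′ to 3′ because the families are defined by their seeds, bases 2 to 8, which are in capitals.
hsa-miR-10a-5p: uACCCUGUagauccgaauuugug
hsa-miR-99a-5p: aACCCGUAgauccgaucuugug
hsa-miR-99b-5p: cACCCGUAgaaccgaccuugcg
hsa-miR-100-5p: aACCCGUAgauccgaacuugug
hsa-miR-125a-5p: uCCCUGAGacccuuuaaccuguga
hsa-miR-125b-5p: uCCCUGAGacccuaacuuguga

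The 3 members of the miR-99/100 family had the seed ACCCGUA and both miR-125 members had CCCUGAG, whereas hsa-miR-10a-5p had ACCCUGU. Outside the seed, hsa-miR-99a-5p and hsa-miR-100-5p differed by a single substitution, U16A, with the base of hsa-miR-99a-5p first and positions counted from 1 at the 5′ end. The edit distance was 4 between hsa-miR-99a-5p and hsa-miR-99b-5p, 3 between the miR-125 members, and 3 between hsa-miR-10a-5p and hsa-miR-100-5p. Reads of hsa-miR-99a-5p and hsa-miR-100-5p may be divided between them by the counting, and their separate values are uncertain to that extent. Of other miRNAs in RefSeq, hsa-miR-4319 has the miR-125 seed, and it was not listed in the deposited counts of any library.

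By the GENCODE annotation (GRCh38), MIR10A is at chr17:48579838-48579947 on the minus strand, in an intron of HOXB3 and an exon of a HOXB4 transcript. MIR10B is at chr2:176150303-176150412 on the plus strand, in an intron of HOXD3. The others lie in 3 clusters. MIR99A at chr21:16539089-16539169 and MIR125B2 at chr21:16590237-16590325 are on the plus strand in introns of MIR99AHG, with MIRLET7C 658 bases from MIR99A. MIR99B at chr19:51692612-51692681 and MIR125A at chr19:51693254-51693339 are on the plus strand in introns of SPACA6, 572 bases apart, with MIRLET7E between them. They also lie in exons of SPACA6P-AS on the opposite strand. MIR100 at chr11:122152229-122152308 and MIR125B1 at chr11:122099757-122099844 are on the minus strand in introns of MIR100HG, with MIRLET7A2 5635 bases from MIR100. Mature hsa-miR-125b-5p has the same sequence from MIR125B1 and MIR125B2, so its reads cannot be assigned to either cluster.

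Depth set what could be measured. Totals were 18397 and 15597 reads in pair 1 (231 EV, then 231 -G EV) and 224966 and 170894 in pair 2. One read was worth 54.4 and 64.1 counts per 1000000 reads (CPM) in pair 1, but 4.45 and 5.85 CPM in pair 2. In 231 EV replicate 1, hsa-miR-182-5p alone took 51.0% of the reads, and 0.250% to 2.73% in the other libraries. Ratios and calls of the members in pair 1 are therefore repeated on totals that exclude hsa-miR-182-5p. Markers of other sources moved as well. The red blood cell list, led by hsa-miR-451a, held 20.0% and 42.8% of pair 1 and 0.253% and 0.0790% of pair 2. In pair 1, 3 of its 4 miRNAs were above 0, and hsa-miR-144-5p was at 0 in both libraries. The muscle list went from 0.0163% to 1.47% in pair 1 and from 0.00667% to 0.00234% in pair 2, with hsa-miR-206 at 0 in 3 libraries. The liver marker hsa-miR-122-5p went from 0.0924% to 0.308% and from 0.132% to 0.0527%. The epithelial list went from 0.0924% to 0.532% and from 0.0858% to 0.0205%, and the white blood cell and platelet list from 0.0435% to 0.173% and from 0.820% to 0.393%. The stromal list went from 2.44% to 1.37% and from 0.218% to 0.106%. The list of hsa-miR-221-3p and hsa-miR-222-3p, which are abundant in basal-like breast cancer lines, held 0.0978% and 0.0641% of pair 1 and 2.11% and 2.88% of pair 2. The part of these sources in the results that follow was not tested.

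The families were measured first as shares of each library. Together the 7 members held 1.13% of 231 EV and 3.90% of 231 -G EV in pair 1, and 11.7% and 8.64% in pair 2. The miR-125 family was the most abundant of the 3 in pair 2, at 7.22% and 5.48%, but was almost undetected in pair 1, with 10 reads or 0.0544% and 10 reads or 0.0641%. The miR-99/100 family held 0.402% and 2.11% of pair 1 and 4.03% and 2.78% of pair 2. The miR-10 family held 0.669% and 1.73% of pair 1, against 0.481% and 0.380% of pair 2. Thus the miR-10 family was the largest of the 3 in 231 EV replicate 1 and the smallest in both libraries of pair 2.

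**Figure D1:**
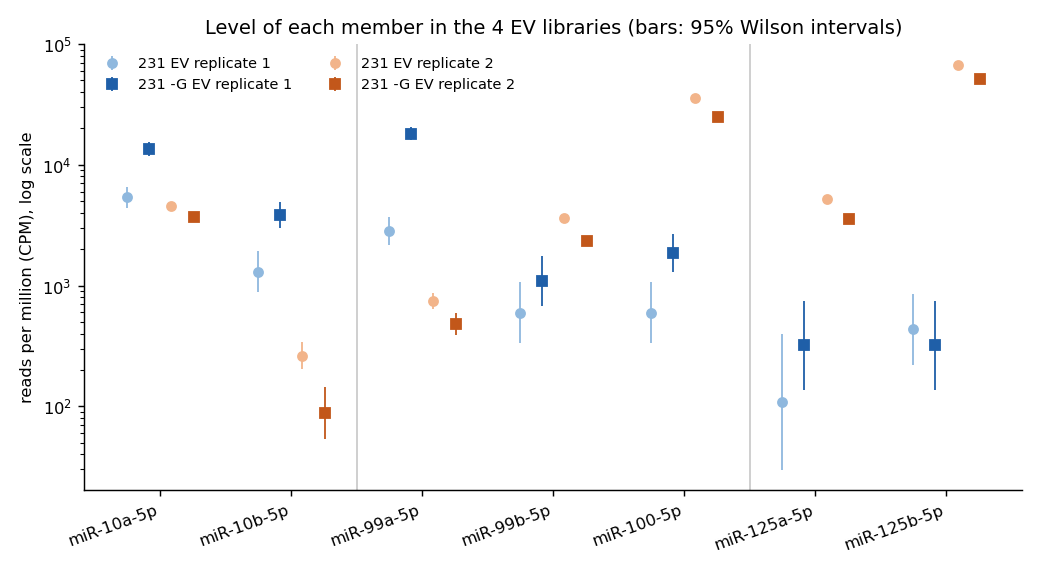
Level of each of the 7 members in each of the 4 libraries, in CPM on a log scale, with 95% Wilson intervals from the reads. The miR-125 members and hsa-miR-100-5p are far higher in the NEBNext libraries of pair 2, whereas hsa-miR-99a-5p and hsa-miR-10b-5p are higher in pair 1.

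The order of the 7 members differed between the pairs, and within the families that of miR-99/100 did. In 231 EV replicate 1 the order was hsa-miR-10a-5p, hsa-miR-99a-5p and hsa-miR-10b-5p, with 99, 52 and 24 reads, followed by hsa-miR-99b-5p and hsa-miR-100-5p with 11 reads each, hsa-miR-125b-5p with 8 and hsa-miR-125a-5p with 2. Among the lowest 4, no neighbours were separated by the exact 95% interval of their ratio. In 231 -G EV replicate 1, hsa-miR-99a-5p with 283 reads stood above hsa-miR-10a-5p with 210 and hsa-miR-10b-5p with 60. Neither hsa-miR-100-5p and hsa-miR-99b-5p nor the miR-125 members could be separated there. In 231 EV replicate 2 all neighbours were separated, in the order hsa-miR-125b-5p, hsa-miR-100-5p, hsa-miR-125a-5p, hsa-miR-10a-5p, hsa-miR-99b-5p, hsa-miR-99a-5p and hsa-miR-10b-5p. The order of 231 -G EV replicate 2 differed only in that hsa-miR-10a-5p and hsa-miR-125a-5p, with 634 and 610 reads, were not separated. Levels of different miRNAs within a library also depend on how well each is ligated and amplified, so this order is that of reads.

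The make-up of the miR-99/100 family showed the contrast between the pairs. Hsa-miR-99a-5p made up 70.3% (95% Wilson interval 59.1 to 79.5) and 86.0% (81.9 to 89.4) of the family reads in pair 1, but 1.84% (1.59 to 2.14) and 1.73% (1.39 to 2.14) in pair 2. Hsa-miR-100-5p made up 14.9% (8.51 to 24.7) and 8.81% (6.21 to 12.4) in pair 1 and 89.2% (88.5 to 89.8) and 89.8% (88.9 to 90.7) in pair 2. The leading member thus switched with the pair and not with the medium. Within the miR-10 family, hsa-miR-10a-5p led in every library, at 80.5% and 77.8% of the reads of pair 1 and at 94.5% and 97.7% of those of pair 2. Within the miR-125 family, hsa-miR-125b-5p made up 92.7% (92.3 to 93.1) and 93.5% (93.0 to 94.0) in pair 2, whereas the 10 reads in each library of pair 1 gave intervals of 49.0 to 94.3 and 23.7 to 76.3.

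**Figure D2:**
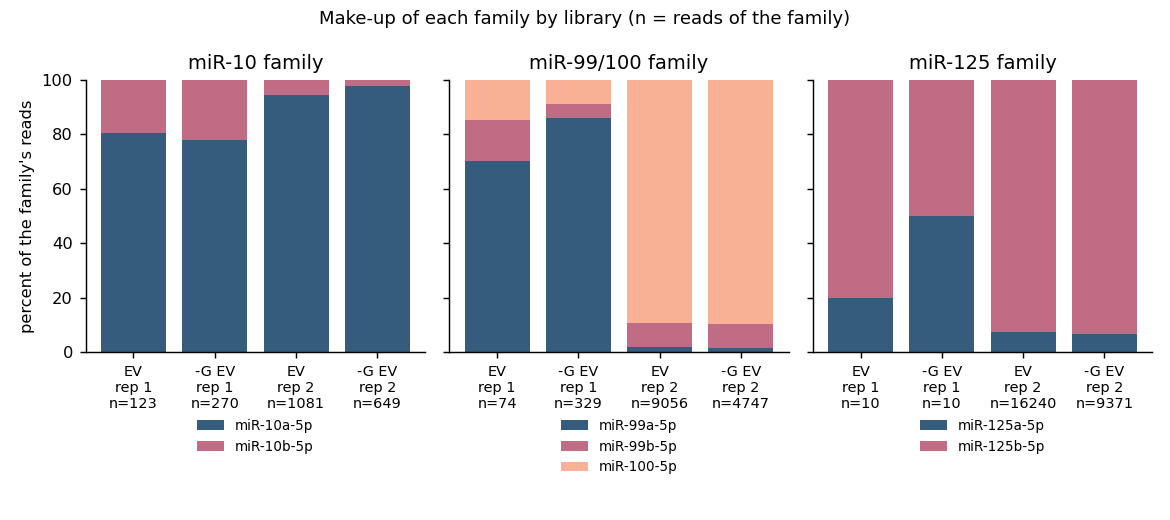
Percent of the reads of each family taken by each of its members, in the 4 libraries. Hsa-miR-99a-5p fills 70.3% and 86.0% of the miR-99/100 bars of pair 1, and hsa-miR-100-5p fills 89.2% and 89.8% of those of pair 2.

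The same medium gave different levels in the 2 pairs. Hsa-miR-125b-5p was 154-fold (exact 95% interval 78.1 to 357) higher in replicate 2 than in replicate 1 of 231 EV and 160-fold (68.5 to 493) higher in 231 -G EV. Hsa-miR-100-5p was 60.0-fold (33.5 to 120) and 13.4-fold (9.33 to 20.1) higher in replicate 2. By contrast, hsa-miR-99a-5p was 3.81-fold (2.73 to 5.23) and 37.8-fold (29.5 to 49.0) higher in replicate 1, and hsa-miR-10b-5p 4.97-fold (2.96 to 8.12) and 43.8-fold (24.6 to 83.1). Members of 1 family therefore stood on opposite sides of the contrast between pairs. Hsa-miR-10a-5p differed least in 231 EV, with a ratio of replicate 1 over replicate 2 of 1.18 (0.954 to 1.46), and was 3.63-fold (3.09 to 4.25) higher in replicate 1 of 231 -G EV.

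Whether glucose starvation changed the families in EVs was then examined within each pair. Reads of a miRNA were compared with the rest of its library by Fisher's exact test, two-sided, with Benjamini-Hochberg adjustment over all miRNAs with a read in the pair. Such a test compares 2 libraries and not the media. The intervals of ratios are exact at 95%, and, since reads amplified by PCR and counted without molecular identifiers are not independent, they cover counting error only. A share of a bulk library cannot tell fewer vesicles with a miRNA from less of that miRNA in each vesicle. By this test, 4 of the 7 members were higher in 231 -G EV in pair 1, where 7.91% of 670 miRNAs were, and 0 were lower, where 1.79% were. In pair 2 all 7 were lower, where 8.74% of 618 miRNAs were, and 0 were higher, where 9.87% were. The 4 that were higher in pair 1 were thus lower in pair 2, and among 295 miRNAs detected in each pair 5.08% had this pattern. Higher in both pairs, or lower in both, were 0 members, against 2.71% and 0.339% of the 295. On totals that exclude hsa-miR-182-5p, 1 member was higher in pair 1, against 2.69% of 669, and 0 were lower, against 5.08%. All 7 were again lower in pair 2, against 8.75% of 617, and the 1 member that was higher in pair 1 and lower in pair 2 is set against 1.36% of 294. The test calls a miRNA more readily the more reads it has. These shares include miRNAs with few reads and were not matched to the members for reads, so they do not show how unusual the members were.

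Hsa-miR-10a-5p, the member of the miR-10 family encoded beside HOXB4, had 99 reads in 231 EV replicate 1, and 210 with glucose removed. In replicate 2 it had 1022 in 231 EV, falling to 634 in 231 -G EV. These were 5381 and 13464 CPM, then 4543 and 3710 CPM, so 231 -G EV replicate 1 was the highest and 231 -G EV replicate 2 the lowest, and the groups overlapped. The ratio of 231 -G EV over 231 EV was 2.50 (1.96 to 3.21) in pair 1 and 0.817 (0.738 to 0.903) in pair 2, with adjusted p of 2.5e-13 and 0.000454 (Fisher's exact test). With hsa-miR-182-5p excluded, the ratio of pair 1 was 1.26 (0.988 to 1.62, Fisher's exact adjusted p 0.410).

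Hsa-miR-10b-5p, linked to metastasis of breast cancer, had 24, 60, 59 and 15 reads in the same order, or 1305, 3847, 262 and 87.8 CPM. Both libraries of pair 1 were above both of pair 2, and the groups overlapped. The ratio was 2.95 (1.81 to 4.95) in pair 1 and 0.335 (0.176 to 0.598) in pair 2, with adjusted p of 5.4e-05 and 0.000409 (Fisher's exact test). Excluding hsa-miR-182-5p brought the first to 1.49 (0.912 to 2.50, Fisher's exact adjusted p 0.604). In pair 2 hsa-miR-10b-5p lay further below 1 than hsa-miR-10a-5p did. The ratio of hsa-miR-10a-5p to hsa-miR-10b-5p, which does not depend on library totals, was 17.3 in 231 EV and 42.3 in 231 -G EV of pair 2, a change of 2.44-fold (1.35 to 4.67). In pair 1 it was 4.13 and 3.50, a change of 0.848 (0.476 to 1.48). RefSeq gave no mature sequence for hsa-miR-10b-5p. Whether the counting divides reads between it and hsa-miR-10a-5p could therefore not be assessed, and their separate values are uncertain to that extent.

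Hsa-miR-99a-5p had the largest ratio of the members in pair 1. It had 52, 283, 167 and 82 reads, or 2827, 18145, 742 and 480 CPM. The library 231 -G EV replicate 1 stood above the other 3, 231 -G EV replicate 2 was the lowest, and the groups overlapped. The ratio was 6.42 (4.76 to 8.80) in pair 1 and 0.646 (0.490 to 0.847) in pair 2, with adjusted p of 6.4e-47 and 0.00769 (Fisher's exact test). It was the member that was still higher in pair 1 once hsa-miR-182-5p was excluded, at 3.24 (2.40 to 4.44, Fisher's exact adjusted p 1.0e-16). The red blood cell, white blood cell, muscle, liver and epithelial lists also had higher shares in 231 -G EV in pair 1 and lower shares in pair 2. The stromal list was lower in 231 -G EV in both pairs, and that of hsa-miR-221-3p and hsa-miR-222-3p was lower in pair 1 and higher in pair 2. The white blood cell list had 8 and 27 reads in pair 1, where hsa-miR-223-3p went from 3 to 2. Of the epithelial list, hsa-miR-141-3p and hsa-miR-429 each went from 2 to 1 there. Hsa-miR-451a, the leading red blood cell marker, had ratios of 2.10 and 0.303, and of 1.06 in pair 1 with hsa-miR-182-5p excluded. Others of its list differed in pair 1, where hsa-miR-486-5p went from 96 to 295 reads and hsa-miR-144-3p had 13 in each library. Of the muscle list, hsa-miR-1-3p went from 3 to 122 reads there, hsa-miR-206 from 0 to 98 and hsa-miR-133a-3p from 0 to 9.

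Hsa-miR-100-5p had 11, 29, 8076 and 4264 reads, or 598, 1859, 35899 and 24951 CPM. Both libraries of pair 2 were above both of pair 1, and the groups overlapped. In pair 2 its ratio was 0.695 (0.670 to 0.721, Fisher's exact adjusted p 8.4e-86). In pair 1 it was 3.11 (1.51 to 6.90, Fisher's exact adjusted p 0.00966), and 1.57 (0.760 to 3.48, adjusted p 0.676) with hsa-miR-182-5p excluded.

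Hsa-miR-99b-5p had 11, 17, 813 and 401 reads, or 598, 1090, 3614 and 2346 CPM, again higher in pair 2 with overlapping groups. Its ratio in pair 2 was 0.649 (0.575 to 0.733, Fisher's exact adjusted p 7.8e-12). In pair 1 no difference could be detected at the depth reached, with a ratio of 1.82 (0.805 to 4.31, Fisher's exact adjusted p 0.639) that turned to 0.919 (0.406 to 2.17) without hsa-miR-182-5p. In pair 2 the 3 members of the miR-99/100 family thus had ratios of 0.646, 0.649 and 0.695. The ratio of hsa-miR-99a-5p to hsa-miR-100-5p changed by 0.930 (0.703 to 1.22) between the media there, and that of hsa-miR-99a-5p to hsa-miR-99b-5p by 0.996 (0.735 to 1.34). In pair 1 the latter rose 3.52-fold (1.40 to 8.47), whereas the former changed by 2.06-fold (0.872 to 4.58), an interval that includes 1.

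Hsa-miR-125b-5p, the most abundant member in pair 2 only, had 8, 5, 15058 and 8761 reads, or 435, 321, 66935 and 51266 CPM. It ranked 4 among all miRNAs of 231 EV replicate 2 and 5 in 231 -G EV replicate 2, but 89 and 130 in the libraries of pair 1, and the groups overlapped. By full totals its ratios were below 1 in both pairs, which held for no other member, although hsa-miR-99b-5p joined it with hsa-miR-182-5p excluded. The ratio was 0.766 (0.746 to 0.786, Fisher's exact adjusted p 3.7e-93) in pair 2. In pair 1 it was 0.737 (0.190 to 2.56, Fisher's exact adjusted p 1), or 0.372 (0.0956 to 1.29) with hsa-miR-182-5p excluded, and 8 and 5 reads could not show a difference.

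Hsa-miR-125a-5p had 2, 5, 1182 and 610 reads, or 109, 321, 5254 and 3569 CPM, with both libraries of pair 2 high and the groups overlapping. Its ratio was 0.679 (0.615 to 0.750, Fisher's exact adjusted p 4.9e-14) in pair 2 and 2.95 (0.483 to 31.0, adjusted p 0.850) in pair 1, where it was 1.49 (0.243 to 15.6) with hsa-miR-182-5p excluded. The reads of pair 1 could therefore not separate a rise from a fall for either miR-125 member. In pair 2, where both fell, the ratio of hsa-miR-125b-5p to hsa-miR-125a-5p went from 12.7 to 14.4, a change of 1.13-fold (1.02 to 1.25).

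**Figure D3:**
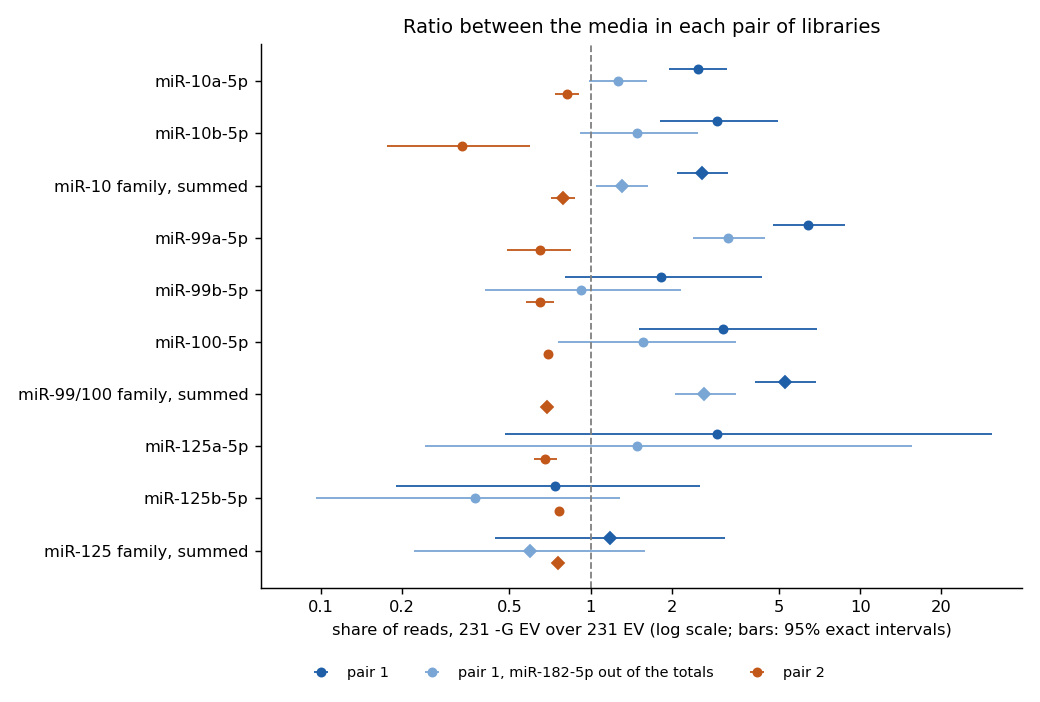
Share of reads in 231 -G EV over that in 231 EV for each member and each summed family, on a log scale with 95% exact intervals, in pair 1, in pair 1 on totals that exclude hsa-miR-182-5p, and in pair 2. All points of pair 2 lie below 1, between 0.335 and 0.817, whereas those of pair 1 spread from 0.737 to 6.42.

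Summed by family, the miR-10 family had a ratio of 2.59 (2.08 to 3.23) in pair 1, or 1.30 (1.05 to 1.63) without hsa-miR-182-5p, and 0.790 (0.716 to 0.872) in pair 2. The miR-99/100 family had 5.24 (4.06 to 6.84) in pair 1, or 2.64 (2.05 to 3.45) without hsa-miR-182-5p, and 0.690 (0.666 to 0.715) in pair 2. The miR-125 family had 1.18 (0.441 to 3.16) in pair 1, or 0.594 (0.222 to 1.59) without hsa-miR-182-5p, and 0.760 (0.740 to 0.779) in pair 2. In pair 2 the 3 families thus had ratios from 0.690 to 0.790. There hsa-miR-16-5p, one of the RT-qPCR references of the study, went from 15834 to 18955 reads, a ratio of 1.58 (1.54 to 1.61). Its ratio in pair 1 was 0.674 (0.445 to 1.01), on 70 and 40 reads, so ratios to it also carry its own change. Relative to hsa-miR-16-5p the ratios of pair 2 were 0.502 for miR-10, 0.438 for miR-99/100 and 0.482 for miR-125.

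Ratios between families do not depend on the totals. In pair 1 the ratio of miR-10 to miR-99/100 reads went from 1.66 to 0.821, a change of 0.494 (0.349 to 0.695), whereas in pair 2 it went from 0.119 to 0.137, a change of 1.15 (1.03 to 1.27). The ratio of miR-99/100 to miR-125 rose 4.45-fold (1.59 to 12.3) in pair 1, on 10 reads of miR-125 in each library, and changed by 0.908 (0.870 to 0.949) in pair 2. The ratio of miR-10 to miR-125 had intervals that include 1 in both pairs, with changes of 2.20 (0.796 to 6.03) and 1.04 (0.939 to 1.15). In pair 2 no ratio between families changed by more than 1.15-fold.

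Across replicates, the groups overlapped for all 7 members, while 16.4% of the 384 miRNAs tested had groups that did not. The quasi-likelihood test of edgeR, blocked on the replicate number, called 0 of the 7 members and 0 of 384 miRNAs, which is 0%, where a call took an adjusted p below 0.05 and a log2 fold change beyond 1 in either direction. Unadjusted p-values were below 0.05 for 5 of the 384, or 1.3%, and for 0 members. TMM scaling, DESeq2, limma and the other models also called 0 members, and 0 or 1 of all miRNAs, with 3 to 21 at an unadjusted p below 0.05. The log2 fold change by edgeR was 1.02 (SE 1.02) for hsa-miR-99a-5p, 0.51 (SE 0.90) for hsa-miR-10a-5p and 0.46 (SE 0.92) for hsa-miR-100-5p. It was 0.14 (SE 1.05) for hsa-miR-125a-5p, 0.04 (SE 0.97) for hsa-miR-99b-5p, 0.02 (SE 1.44) for hsa-miR-10b-5p and -0.41 (SE 0.91) for hsa-miR-125b-5p. The edgeR adjusted p was 0.999 for each, and 7 alternatives, DESeq2 and limma among them, gave adjusted p of 0.982 to 1.00. The fold change of hsa-miR-99a-5p was about as large as its SE, and those of the other members were smaller than theirs. This SE is the absolute log2 fold change over the square root of the F statistic of the edgeR test. The comparison with it therefore restates that test.

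The 2 pairs contributed opposite directions to these fits. By the value of CPM plus 1, 6 of the 7 members were higher in pair 1 and lower in pair 2, and the exception was hsa-miR-125b-5p. Among all 384 miRNAs tested, 27.6% had this pattern, and among the 154 above 0 in all 4 libraries, as the members were, 41.6% had it. With hsa-miR-182-5p excluded, a setting added here after seeing the data, hsa-miR-99b-5p left the pattern and 5 members had it, against 19.8% of 383 and 24.8% of 153. The median log2 fold change of the members was 1.55 in pair 1 and -0.56 in pair 2, against 0.66 and -0.029 for the 154 miRNAs, and 0.15 and -0.048 for the 384. With hsa-miR-182-5p excluded, the medians of pair 1 were 0.57 for the members and -0.31 for the 153. In the edgeR fit the medians were 0.14 for the members and 0.20 for the 384 miRNAs, and with TMM scaling they were -0.27 and -0.14. Scaling thus moved the median of all miRNAs by more than the distance between the members and the rest. No member was above 1.5-fold in both pairs, against 7.24% of 539 miRNAs, and none was below the inverse in both, against 6.68%. Above 1.5-fold in pair 1 and below the inverse in pair 2 were 3 members, against 9.09% of 539. With hsa-miR-182-5p excluded, this was 1 member, hsa-miR-99a-5p, against 6.51% of 538.

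**Figure D4:**
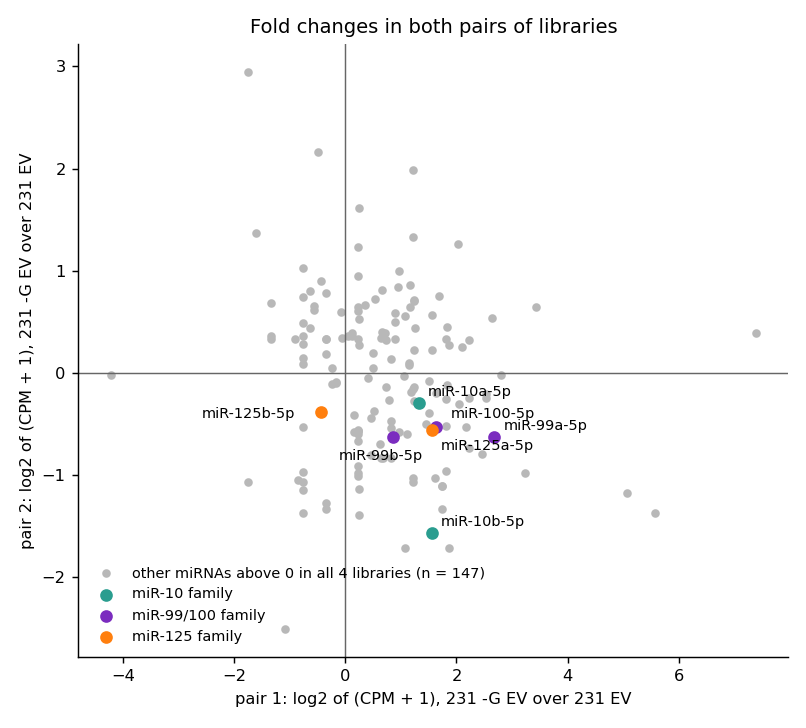
Log2 fold change of CPM plus 1 (231 -G EV over 231 EV) in pair 1 (horizontal) and pair 2 (vertical) for the 154 miRNAs above 0 in all 4 libraries, with the 7 members in colour. By full library totals, all members but hsa-miR-125b-5p lie at the lower right, higher in pair 1 and lower in pair 2.

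The other strand of each hairpin and the let-7 miRNAs of the clusters were read next, since they come from the same precursors or transcripts. Of the 8 opposite (3p) arms, 7 were listed in pair 1, where none had more than 2 reads, and all 8 had a read in pair 2. There, 1 of 8 was lower by Fisher's exact test and 0 were higher, beside 8.74% and 9.87% of all miRNAs. The arm that fell was hsa-miR-100-3p, shown with its seed in capitals.
hsa-miR-100-3p: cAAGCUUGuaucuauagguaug

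Hsa-miR-100-3p had 112 reads in 231 EV and 25 in 231 -G EV of pair 2, a ratio of 0.294 (0.182 to 0.456, Fisher's exact adjusted p 1.3e-08). It fell more than hsa-miR-100-5p from the same hairpin, and the ratio of the 3p to the 5p arm changed by 0.423 (0.262 to 0.658). The MIR10A hairpin went the other way. Hsa-miR-10a-3p had 50 and 53 reads, with a ratio of 1.40 (0.930 to 2.10), and its ratio to hsa-miR-10a-5p rose 1.71-fold (1.12 to 2.60). The arms of these 2 hairpins thus did not move together. Hsa-miR-125b-1-3p, which comes from MIR125B1 alone, had 109 and 88 reads, with a ratio of 1.06 (0.793 to 1.42). Its ratio to hsa-miR-125b-5p, whose reads also include those of MIR125B2, rose 1.39-fold (1.03 to 1.86). For hsa-miR-99b-3p (64 and 39 reads), hsa-miR-125a-3p (9 and 10), hsa-miR-125b-2-3p (9 and 8) and hsa-miR-99a-3p (6 and 3) the change against the 5p arm had an interval that includes 1. Hsa-miR-10b-3p had 1 and 0 reads.

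Of the 6 let-7 products of the clusters, 3 were lower in 231 -G EV of pair 2 and 0 were higher, again beside 8.74% and 9.87% of all miRNAs. These 3 were the 5p arms, which are the guide strands. Hsa-let-7a-5p, also made from 2 genes outside the cluster, had 18082 and 9218 reads with a ratio of 0.671 (0.654 to 0.688), beside 0.695 for hsa-miR-100-5p. The ratio of hsa-miR-100-5p to hsa-let-7a-5p changed by 1.04 (0.990 to 1.08). Hsa-let-7e-5p had 774 and 411 reads with a ratio of 0.699 (0.619 to 0.789), beside 0.649 for hsa-miR-99b-5p and 0.679 for hsa-miR-125a-5p from the same cluster. Relative to it, hsa-miR-99b-5p changed by 0.929 (0.781 to 1.10) and hsa-miR-125a-5p by 0.972 (0.830 to 1.14). Hsa-let-7c-5p had 408 and 233 reads with a ratio of 0.752 (0.637 to 0.885), and hsa-miR-99a-5p changed relative to it by 0.860 (0.622 to 1.18). In RefSeq, the sequences of hsa-let-7c-5p and hsa-let-7e-5p are nearly that of hsa-let-7a-5p, which had far more reads in pair 2. Reads may be divided among these let-7 miRNAs by the counting in both pairs, and their separate values are uncertain to that extent. In pair 2 each of the members compared above and its let-7 neighbour thus fell by amounts that the reads did not separate. Hsa-miR-100-5p fell more than hsa-miR-125b-5p, with a change of 0.907 (0.867 to 0.950) in their ratio. Falls of like size were not limited to the clusters. The log2 fold change of CPM plus 1 in pair 2 was -0.60 for hsa-miR-26a-5p and -0.70 for hsa-miR-103a-3p, beside -0.58 for hsa-let-7a-5p. Among the 154 miRNAs above 0 in all 4 libraries, 79 were lower in pair 2.

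**Figure D5:**
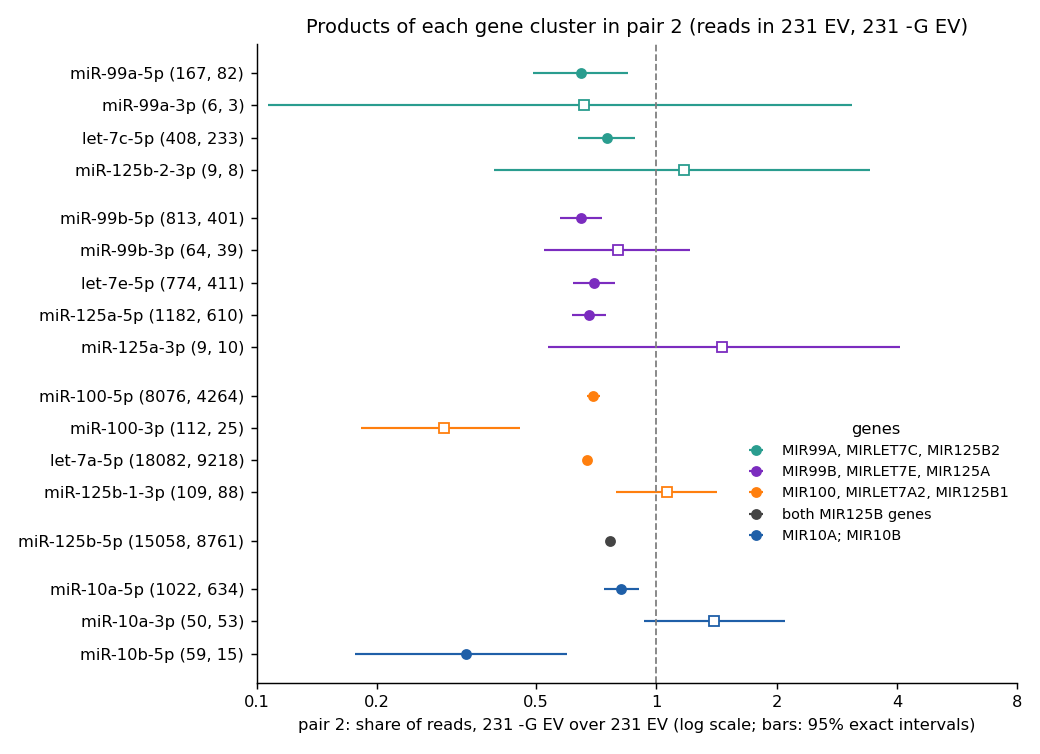
Share of reads in 231 -G EV over that in 231 EV in pair 2 for the mature miRNAs of each gene cluster, on a log scale with 95% exact intervals. Filled points are 5p arms and open squares are 3p arms, and reads stand beside each name. The 5p arms lie between 0.335 and 0.817, and hsa-miR-100-3p at 0.294 lies below hsa-miR-100-5p.

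In pair 1 the neighbours parted. Hsa-let-7c-5p had 50 and 47 reads, a ratio of 1.11 (0.728 to 1.69) that turned to 0.559 (0.367 to 0.849, Fisher's exact adjusted p 0.0551) with hsa-miR-182-5p excluded, while hsa-miR-99a-5p, whose gene is 658 bases away, went from 52 to 283 reads. The ratio of hsa-miR-99a-5p to hsa-let-7c-5p rose 5.79-fold (3.41 to 9.79) there, and this ratio is free of the total and of hsa-miR-182-5p. Hsa-let-7a-5p had 66 and 62 reads, a ratio of 1.11 (0.771 to 1.59) that likewise turned to 0.558 (0.388 to 0.802, Fisher's exact adjusted p 0.0193), and the ratio of hsa-miR-100-5p to it rose 2.81-fold (1.23 to 6.75). Hsa-let-7e-5p had 2 and 6 reads, too few to compare with hsa-miR-99b-5p or hsa-miR-125a-5p.

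For the member of each family with the highest mean CPM over the 4 libraries, the miRNAs with the most similar profiles were sought among 49 others with at least 10 reads in every library. For miR-99/100 this was hsa-miR-100-5p, which led the family in pair 2 only. Likeness was the distance between centred profiles of log2(CPM + 1) over the 4 libraries. Nearest to hsa-miR-10a-5p was hsa-miR-218-5p, at a distance of 0.232, with 12, 29, 113 and 81 reads. Next came hsa-miR-192-5p at 0.618 and hsa-miR-320a-3p at 0.692, and the median distance was 2.03. Nearest to hsa-miR-100-5p were hsa-let-7a-5p at 1.26, hsa-miR-93-5p at 1.48 and hsa-miR-21-5p at 1.53, with a median of 4.70. Nearest to hsa-miR-125b-5p were hsa-miR-16-5p at 2.58, hsa-let-7a-5p at 3.20 and hsa-miR-21-5p at 3.83, with a median of 7.18. With 8 and 5 reads in pair 1, hsa-miR-125b-5p itself was under the minimum set for the others, so its distances are uncertain. For each of these 3 members the largest fold difference between any pair of libraries was one across replicates, so these distances weigh the replicates more than the media.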

How the data were processed

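Small RNA of EVs was measured in 4 libraries, 2 per group. The authors deposited whole-number read counts per mature miRNA. The deposited CPM of replicate 1, and the values headed TPM of replicate 2, each equalled the count over the library total times 1000000 and are one unit here. The study describes trimming, removal of other small RNAs and a match of reads to miRBase, and the submitters' processing notes name hg38, cutadapt, Bowtie, Bowtie2, StringTie, FastQC and edgeR without roles. The replicate number marks the library preparation per the labels, which also name a TruSeq kit for replicate 2.

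The 7 members and all lists were chosen with earlier results of these data known. EdgeR 4.0.16 (quasi-likelihood, R 4.3.3) was fitted to the counts of 384 miRNAs, listed for both replicates and above 0 in at least 2 libraries, scaled by the deposited library totals, with a block for the replicate number. Same-numbered libraries deviated together from their group means (correlation 0.59), and the block took the common dispersion from 1.60 to 0.301. Alternatives were TMM, DESeq2 1.42.0, limma 3.58.1, other filters and other totals. Fisher's exact tests and exact intervals used SciPy 1.17.1. Fold counts used CPM plus a pseudocount of 1. All members, their 3p arms, let-7 neighbours, miRNAs with a shared seed, the 3 nearest profiles per family, hsa-miR-182-5p and hsa-miR-16-5p were named by rule. Depth was 15597 to 224966 reads per library. The intervals for shares are 95% Wilson intervals.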

Additional observations from a re-analysis of the deposited data

Results flagged for a closer look

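The ratio of 231 -G EV over 231 EV differed between the pairs of libraries for 5 members and for the sums of miR-10, of miR-99/100 and of all members, because the 95% interval of the ratio of pair 1 over that of pair 2 (Wald, on the log scale, counting error only) left out 1. This quotient was 9.93 (6.68 to 14.8) for hsa-miR-99a-5p, 8.81 (4.21 to 18.4) for hsa-miR-10b-5p, 4.47 (2.23 to 8.96) for hsa-miR-100-5p, 3.06 (2.37 to 3.97) for hsa-miR-10a-5p and 2.81 (1.30 to 6.05) for hsa-miR-99b-5p. By family it was 7.60 (5.89 to 9.80) for miR-99/100 and 3.28 (2.59 to 4.14) for miR-10, and it was 4.71 (4.02 to 5.52) over all 7 members. On totals that exclude hsa-miR-182-5p it was 5.01 (3.37 to 7.44) for hsa-miR-99a-5p, 4.44 (2.12 to 9.29) for hsa-miR-10b-5p, 2.25 (1.13 to 4.52) for hsa-miR-100-5p and 1.54 (1.19 to 2.00) for hsa-miR-10a-5p. It was then 3.83 (2.97 to 4.94) for miR-99/100, 1.65 (1.31 to 2.09) for miR-10 and 2.37 (2.02 to 2.78) over all members, while that of hsa-miR-99b-5p, 1.41 (0.657 to 3.05), then included 1. For hsa-miR-125a-5p, at 4.34 (0.840 to 22.4), hsa-miR-125b-5p, at 0.963 (0.315 to 2.94), and their sum, at 1.55 (0.646 to 3.73), the interval included 1. The share of all miRNAs that meet this rule was not computed, so the count of 5 cannot be read as a trait of these members. Of the 154 miRNAs above 0 in all 4 libraries, 41.6% were higher in pair 1 and lower in pair 2. The pairs differ in library preparation, and the preparation and the replicate cannot be told apart.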

How the results depend on the processing

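Of 133 alternative values, 92 kept their direction and side of the threshold or stayed within the spread, 20 moved and 21 reversed, and where no construction of the alternative shows it the cause was not tested. EdgeR called 1 miRNA in place of 0, not a member, when all miRNAs above 0 in any library were tested and when hsa-miR-182-5p was excluded. Leaving out hsa-miR-182-5p lowered the members higher in pair 1 from 4 to 1. Pair 1 family ratios were then 1.30 (miR-10) and 2.64 (miR-99/100). With TMM they were 1.44 and 2.92, and relative to hsa-miR-16-5p they were 3.84 and 7.78. The miR-125 ratio of pair 1, 1.18, became 0.594, 0.657 and 1.75 in the same order, all within its interval. In pair 2, TMM gave 0.650 for miR-99/100 and 0.715 for miR-125, hsa-miR-16-5p gave 0.502 (miR-10), 0.438 (miR-99/100) and 0.482 (miR-125), and leaving out the most abundant member gave 0.335, 0.649 and 0.679. Log2 fold changes turned negative for hsa-miR-10b-5p with TMM (-0.44), DESeq2 (-0.30), limma (-0.0044) and without hsa-miR-182-5p (-0.47). They did so for hsa-miR-99b-5p with TMM (-0.40), DESeq2 (-0.22) and without hsa-miR-182-5p (-0.41), for hsa-miR-100-5p with TMM (-0.00017) and without hsa-miR-182-5p (-0.028), and for hsa-miR-125a-5p with TMM (-0.27), DESeq2 (-0.033) and without hsa-miR-182-5p (-0.26). Without the replicate block the values were -0.30 for hsa-miR-99b-5p, -0.44 for hsa-miR-100-5p and -0.46 for hsa-miR-125a-5p, while hsa-miR-10a-5p went from 0.51 to 0.79, hsa-miR-10b-5p from 0.02 to 1.33 and hsa-miR-99a-5p from 1.02 to 2.39, and 0 members and 0 miRNAs were called. Leaving out a replicate left no residual degrees of freedom for edgeR, so values without a test are given, the lower without replicate 1 and the higher without replicate 2. They ran from -0.29 to 1.32 for hsa-miR-10a-5p, -1.57 to 1.56 for hsa-miR-10b-5p, -0.63 to 2.68 for hsa-miR-99a-5p, -0.62 to 0.87 for hsa-miR-99b-5p, -0.52 to 1.64 for hsa-miR-100-5p and -0.56 to 1.55 for hsa-miR-125a-5p. Members above 1.5-fold then ranged from 0 to 6, and members below the inverse from 0 to 3. The 10 reads of the miR-125 family per library limit what pair 1 can show.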
